A study of Homo sapiens with 16 samples.

Results

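The BCL2 family apoptosis regulators described here are 10 genes, taken by symbol from a table of 35106 gene rows measured by RNA sequencing in 2 human breast cancer cell lines. They comprise 3 genes for anti-apoptotic proteins (BCL2, BCL2L1 and MCL1), 2 for pore-forming effectors (BAX and BAK1) and 5 for BH3-only proteins (BBC3, PMAIP1, BCL2L11, BID and BIK). Each symbol matched 1 row, and all 10 passed the filter on low counts in every comparison. The 16 libraries form 4 groups: SKBR3 cells given MitoQ (n = 3), SKBR3 controls (n = 3), MDA-MB-231 cells given MitoQ (n = 5) and MDA-MB-231 controls (n = 5). MitoQ, a ubiquinone-type antioxidant carrying a lipophilic cation that concentrates it in mitochondria, was given at 500 nM for 48 h. What the control cells received is not stated. MDA-MB-231, a triple-negative line with mesenchymal features, was at passage 25, and SKBR3, a line with amplified ERBB2, was at passage 10. Both lines derive from pleural effusions of breast adenocarcinoma.

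BCL2 family proteins control the permeability of the mitochondrial outer membrane, the committing step of the intrinsic pathway of apoptosis. BAX and BAK form pores that release cytochrome c, which together with APAF1 activates caspases. BCL2, BCL-XL (from BCL2L1) and MCL1 hold the effectors and BH3-only proteins in check, while BH3-only proteins are induced or activated by stress and either neutralise the anti-apoptotic proteins or engage BAX and BAK. NOXA, encoded by PMAIP1, binds chiefly MCL1, whereas PUMA, encoded by BBC3, and BIM, encoded by BCL2L11, bind all the anti-apoptotic members. Much of the family's control lies in protein stability, binding and splicing, none of which gene-level RNA counts measure: BCL2L1, MCL1 and BCL2L11 each give isoforms of differing activity that were summed here.

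Library totals ran from 19844695 to 25904852 counts in MDA-MB-231 MitoQ, from 23612986 to 29294865 in MDA-MB-231 controls, from 19157771 to 27739692 in SKBR3 MitoQ and from 14723152 to 27841144 in SKBR3 controls. The share of counts from mitochondrially encoded genes was 0.891 to 1.24% in MDA-MB-231 MitoQ, against 3.1 to 3.68% in MDA-MB-231 controls, and 5.15 to 5.26% in SKBR3 MitoQ, against 5.67 to 7.08% in SKBR3 controls. ERBB2 averaged 5724 CPM (counts scaled to library size) in SKBR3 MitoQ and 5327 in SKBR3 controls, against 53.6 in MDA-MB-231 MitoQ and 54.2 in MDA-MB-231 controls, so the library labels fit the lines. Of the markers of MDA-MB-231, CD44 averaged 37.6 CPM in SKBR3 MitoQ and 16.9 in SKBR3 controls. VIM averaged 0.401 CPM in SKBR3 MitoQ and 0.179 in SKBR3 controls, and AXL 0.508 in SKBR3 MitoQ and 0.608 in SKBR3 controls, beside means of 3409 for VIM and 1826 for AXL in MDA-MB-231 controls, so VIM and AXL were near 0 in SKBR3. SKBR3 control 3 stood apart, at -7.19 on the first principal component of the SKBR3 libraries, where the other controls were at -20.11 and -19.21 and the MitoQ libraries between 12.73 and 17.87. MDA-MB-231 MitoQ library 2 also stood apart, at -24.96 on the second component of the MDA-MB-231 libraries, where the other MitoQ libraries were between -0.13 and 10.51. Results that change without either library are given with that value.

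In SKBR3 controls against MDA-MB-231 controls, the 3 anti-apoptotic members were lower. Of the 5 BH3-only members, 3 were higher and 2 lower. BCL2, BCL2L1 and MCL1 were all lower in SKBR3 controls, as were BAX, PMAIP1 and BID. BAK1, BBC3, BCL2L11 and BIK were higher. BCL2L2, an anti-apoptotic gene outside the 10, averaged 62.0 CPM in SKBR3 controls and 46.3 CPM in MDA-MB-231 controls. BCL2A1 and BCL2L10, of the same kind, were near 0 in both groups. All 10 genes passed the test, 4 higher and 6 lower, but so did 86.5% of all 16398 genes tested between the lines, 42% higher and 44.4% lower. The groups did not overlap for 9 of the 10, as for 83% of all genes. The median log2 fold change of the 10 genes was -0.52. Line and passage cannot be told apart in this comparison.

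PMAIP1 differed most. It stood at 1.14, 1.13 and 1.12 CPM in SKBR3 controls, from 17 to 31 counts per library, against 33.2, 32.8, 34.5, 35.0 and 38.2 CPM in MDA-MB-231 controls. Its log2 fold change was -4.92 ± 0.11 (SE; adjusted p = 2.08e-20, edgeR's quasi-likelihood test with Benjamini-Hochberg adjustment over all genes tested, as for every adjusted p given here). In bulk RNA, fewer cells making an mRNA and less of it per cell cannot be told apart. BCL2, the founding member of the family, was at 0.542, 1.20 and 0.797 CPM in SKBR3 controls, against 17.5, 19.1, 15.1, 16.6 and 18.7 CPM in MDA-MB-231 controls. That is a log2 fold change of -4.38 ± 0.161 (adjusted p = 1.49e-16), resting on 10 to 22 counts per SKBR3 control library. PMAIP1 and BCL2 were thus near the bottom of the 10 genes in SKBR3, though above the limit that a count of 0 allows. Set at 3 counts, that limit is 0.106 to 0.2 CPM across libraries.

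BAX and BCL2L1 were also well separated. BAX averaged 20.8 ± 2.14 CPM in SKBR3 controls (SD, n = 3) and 72.1 ± 1.51 CPM in MDA-MB-231 controls (SD, n = 5), a log2 fold change of -1.77 ± 0.0588 (adjusted p = 2.35e-17). BCL2L1 averaged 97.9 ± 5.89 CPM in SKBR3 controls and 294 ± 14.2 CPM in MDA-MB-231 controls (log2 fold change -1.57 ± 0.0491, adjusted p = 8.04e-18). BID, whose product is cut by caspase-8 and so links death receptors to mitochondria, had a log2 fold change of -0.55, and MCL1 one of -0.49. On the higher side, BIK (1.02), BCL2L11 (0.98) and BBC3 (0.74) led. BAK1 had a log2 fold change of 0.19 ± 0.0521 (adjusted p = 0.00244), and its groups overlapped, with 50.7 to 55.6 CPM in SKBR3 controls and 45.1 to 51.1 CPM in MDA-MB-231 controls.

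**Figure D1:**
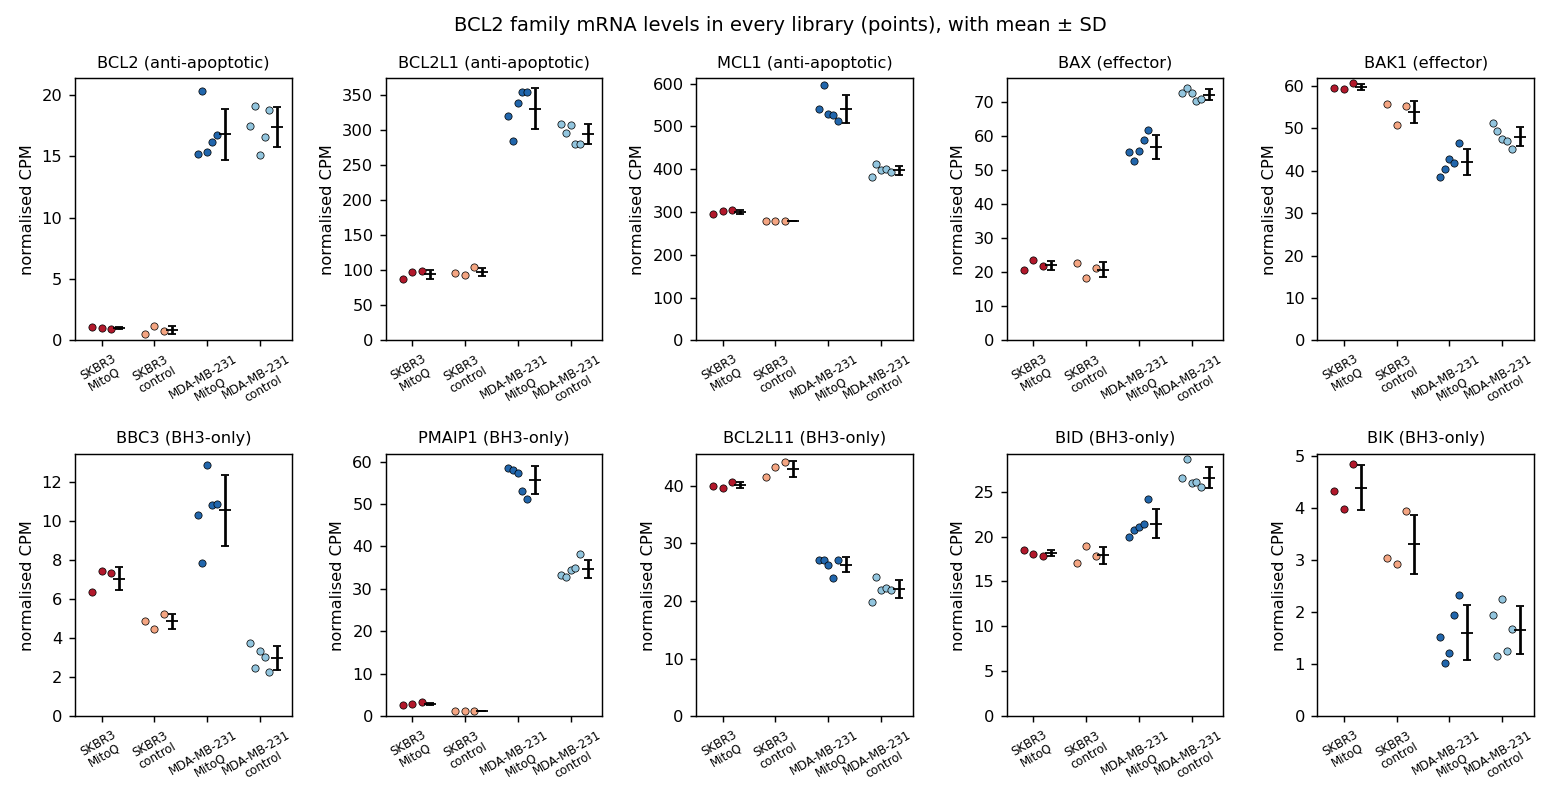
Level of each of the 10 genes in every library, in TMM-scaled CPM on a linear axis from 0 with its own range for each gene; each point is 1 library and the black marks are the group mean ± SD. PMAIP1 and BCL2 lie far lower in SKBR3 than in MDA-MB-231, and BBC3 in MDA-MB-231 MitoQ (7.84 to 12.9 CPM) clears its controls (2.24 to 3.75 CPM).

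Levels can be compared between genes only per transcript length, so CPM was divided by the length in kb of each gene's principal GENCODE transcript. On that scale BCL2L1 led in MDA-MB-231 controls with a mean of 113 CPM per kb, followed by MCL1 (101) and BAX (90.9). BAK1 (22.5), PMAIP1 (17.8), BCL2L11 (14.5) and BID (10.6) followed. BCL2 (2.33), BIK (1.74) and BBC3 (1.62) came last, and the libraries of these last 3 overlapped. In MDA-MB-231 MitoQ, MCL1 (138 CPM per kb) stood above BCL2L1 (127), with overlapping libraries, and PMAIP1 (28.5) stood above BAK1 (19.6). In SKBR3 controls MCL1 led at 71.1 CPM per kb, ahead of BCL2L1 (37.5). BCL2L11 (28.2), BAX (26.2) and BAK1 (25.2) came next, with BAX overlapping both of the others. BID (7.17), BIK (3.47), BBC3 (2.65), PMAIP1 (0.58) and BCL2 (0.113) followed in that order. In SKBR3 MitoQ the first places were again held by MCL1 (76.5) and BCL2L1 (36.2), and PMAIP1 (1.53) and BCL2 (0.134) were again last. Over the principal transcript, BAK1 per kb was 0.964 ± 0.0544 of BAX in SKBR3 controls, against 0.247 ± 0.00928 in MDA-MB-231 controls. These orders depend on the length used. Over the union of all annotated exons, MCL1 (91.0 CPM per kb) stood above BCL2L1 (88.8) in MDA-MB-231 controls, with overlapping libraries, and PMAIP1 (24.9) above BAX (21.9) in MDA-MB-231 MitoQ, also overlapping. On that length BAX averaged 8.03 CPM per kb in SKBR3 controls and 27.9 in MDA-MB-231 controls, and BCL2L11 6.45 in SKBR3 controls and 3.31 in MDA-MB-231 controls. BAK1 was then 3.04 ± 0.171 times BAX in SKBR3 controls, against 0.778 ± 0.0292 times in MDA-MB-231 controls.

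**Figure D2:**
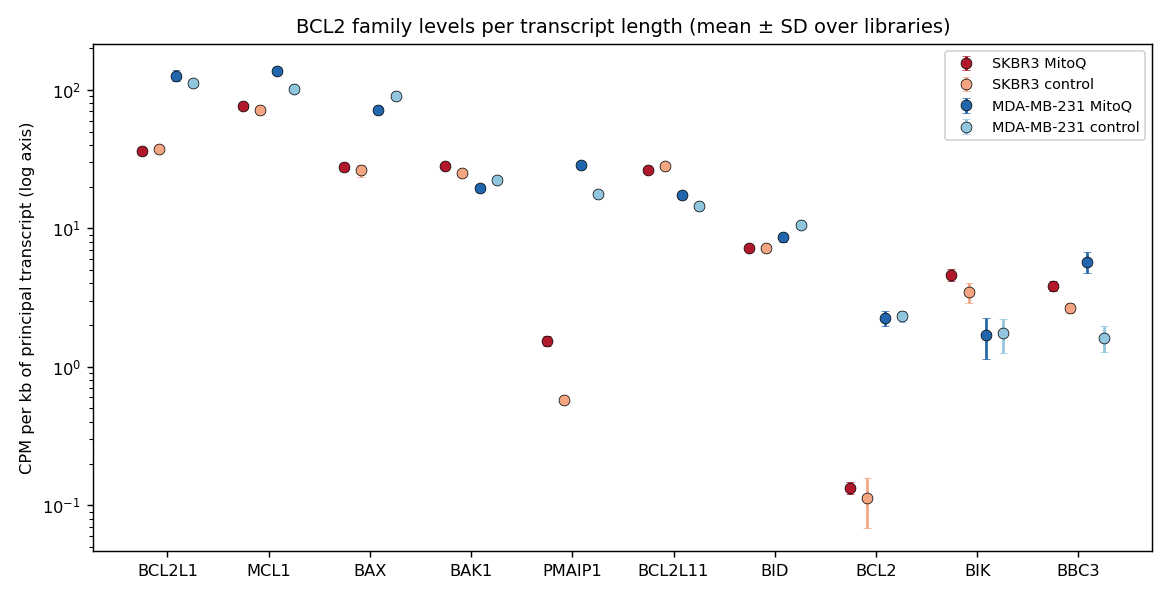
Mean level of the 10 genes in each group in CPM per kb of principal transcript, on a log axis, with bars for the SD over libraries. MCL1 and BCL2L1 lead in all 4 groups, while PMAIP1 is next to last in SKBR3 (1.53 in MitoQ, 0.58 in controls) and near the middle in MDA-MB-231 (28.5 in MitoQ, 17.8 in controls).

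The treatment comparison asks how MitoQ altered these genes within each line. In MDA-MB-231 given MitoQ, BBC3, PMAIP1, MCL1, BCL2L11 and BCL2L1 rose, BAX, BID and BAK1 fell, and BCL2 and BIK gave no call. Thus 8 of the 10 genes passed the test, 5 upward and 3 downward, where 57.5% of 15304 genes passed, 29.9% upward and 27.6% downward. The groups did not overlap for MCL1, BAX, BBC3, PMAIP1 and BID, as for 44.1% of all genes. The median log2 fold change of the 10 genes was 0.08, beside 0.012 over all genes. The part of the lower mitochondrially encoded share of these MitoQ libraries in the changes was not tested.

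BBC3, which encodes PUMA, had the largest change of the 10 in this line. It stood at 10.3, 7.84, 12.9, 10.8 and 10.8 CPM in MDA-MB-231 MitoQ, against 3.75, 2.49, 3.33, 3.05 and 2.24 CPM in MDA-MB-231 controls. Every MitoQ library lay above every control. The log2 fold change was 1.84 ± 0.141 (SE; 3.59-fold, adjusted p = 2.69e-09), placing it 226th of the 15304 genes by size of change. PMAIP1, which encodes NOXA, was at 58.5, 57.9, 57.4, 53 and 51.2 CPM in MDA-MB-231 MitoQ, against 33.2, 32.8, 34.5, 35.0 and 38.2 CPM in MDA-MB-231 controls. The groups were again apart, with a log2 fold change of 0.70 ± 0.0565 (1.63-fold, adjusted p = 3.97e-09). BCL2L11, which encodes BIM, averaged 26.3 ± 1.34 CPM in MDA-MB-231 MitoQ and 22 ± 1.57 CPM in MDA-MB-231 controls (SD, n = 5 each). It rose by a log2 fold change of 0.28 ± 0.0633 (adjusted p = 0.000919), although 1 MitoQ library at 24.0 CPM lay below 1 control at 24.2 CPM.

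BID and BIK differed from those 3 BH3-only genes. BID stood at 20, 20.7, 21.0, 21.4 and 24.1 CPM in MDA-MB-231 MitoQ, against 26.5, 28.6, 26.0, 26.1 and 25.5 CPM in MDA-MB-231 controls, and its log2 fold change was -0.29 ± 0.0609 (adjusted p = 0.000502). The groups did not overlap. BIK, a BH3-only protein of the endoplasmic reticulum, was at 1.02 to 2.33 CPM in MDA-MB-231 MitoQ and 1.17 to 2.26 CPM in MDA-MB-231 controls, from 24 to 64 counts per library. Its log2 fold change of -0.02 ± 0.231 had a 95% interval from -0.508 to 0.461 (adjusted p = 0.942), so a change of modest size in either direction was not detectable at this depth.

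Among the anti-apoptotic genes of MDA-MB-231, MCL1 was at 541, 596, 529, 526 and 512 CPM with MitoQ, against 383, 412, 398, 401 and 394 CPM in controls. No libraries overlapped, and its log2 fold change was 0.47 ± 0.0481 (1.38-fold, adjusted p = 1.17e-07). BCL2L1 stood at 320, 284, 339, 354 and 355 CPM in MDA-MB-231 MitoQ, against 308, 296, 308, 280 and 279 CPM in MDA-MB-231 controls. MitoQ library 2, the highest of its group for MCL1 and BCL2, was the lowest for BCL2L1, BBC3, BAX and BIK, and for BCL2L1 it lay within the control range. The log2 fold change of BCL2L1 was 0.19 ± 0.056 (adjusted p = 0.00777). BCL2 averaged 16.8 ± 2.09 CPM in MDA-MB-231 MitoQ and 17.4 ± 1.61 CPM in MDA-MB-231 controls, a log2 fold change of -0.03 ± 0.0858 with a 95% interval from -0.209 to 0.151 (adjusted p = 0.799).

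Both effectors were lower in MDA-MB-231 given MitoQ. BAX was at 55.3, 52.6, 55.4, 58.7 and 61.8 CPM in MDA-MB-231 MitoQ, against 72.6, 74.0, 72.6, 70.2 and 70.9 CPM in MDA-MB-231 controls. It thus fell in every MitoQ library relative to every control, with a log2 fold change of -0.32 ± 0.0472 (adjusted p = 9.62e-06). BAK1 stood at 38.4, 40.4, 42.7, 41.7 and 46.5 CPM in MDA-MB-231 MitoQ, against 51.1, 49.3, 47.3, 47.0 and 45.1 CPM in MDA-MB-231 controls, where the highest MitoQ library exceeded the lowest control. Its log2 fold change was -0.17 ± 0.0554 (adjusted p = 0.0122). With plain library totals in place of TMM scaling it was -0.11 (adjusted p = 0.0785), which ends the call.

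In SKBR3, PMAIP1 and BBC3 rose with MitoQ and the other 8 genes gave no call. Those are 2 of 10 genes, both upward, where 28% of 15026 genes passed, 13.8% upward and 14.1% downward. The groups did not overlap for 6 of the 10 (MCL1, BAK1, BBC3, PMAIP1, BCL2L11 and BIK), as for 40% of all genes. The median log2 fold change of the 10 was 0.11, beside -0.00064 over all genes. The part of the higher CD44 of the SKBR3 MitoQ libraries in these results was not tested.

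PMAIP1 was at 2.75, 2.94 and 3.23 CPM in SKBR3 MitoQ, against 1.14, 1.13 and 1.12 CPM in SKBR3 controls. All MitoQ libraries lay above all controls. The libraries held 57 to 81 PMAIP1 counts with MitoQ and 17 to 31 in controls, and the log2 fold change was 1.37 ± 0.193 (2.58-fold, adjusted p = 0.000164), the 60th largest of 15026. Even so, PMAIP1 in SKBR3 MitoQ remained far under its level in MDA-MB-231 controls, where it averaged 34.7 ± 2.12 CPM. BBC3 was at 6.37, 7.44 and 7.33 CPM in SKBR3 MitoQ, against 4.88, 4.46 and 5.25 CPM in SKBR3 controls, also without overlap. It rose by a log2 fold change of 0.51 ± 0.124 (1.42-fold, adjusted p = 0.0072). BBC3 had its lowest mean of the 4 groups in MDA-MB-231 controls (2.97 CPM) and its highest in MDA-MB-231 MitoQ (10.5 CPM), with SKBR3 MitoQ (7.04 CPM) and SKBR3 controls (4.86 CPM) between them.

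None of the remaining SKBR3 genes passed. MCL1 was at 296, 302 and 305 CPM in SKBR3 MitoQ, against 279, 280 and 280 CPM in SKBR3 controls. The groups were apart but by little, with a log2 fold change of 0.09 ± 0.0342 (adjusted p = 0.0771). BAK1 was at 59.4, 59.2 and 60.6 CPM in SKBR3 MitoQ, against 55.6, 50.7 and 55.1 CPM in SKBR3 controls (log2 fold change 0.13 ± 0.0481, adjusted p = 0.0621). BIK was at 4.34, 3.99 and 4.85 CPM in SKBR3 MitoQ, against 3.03, 2.93 and 3.95 CPM in SKBR3 controls (log2 fold change 0.36 ± 0.158, adjusted p = 0.106). Without SKBR3 control 3, 4 of the 10 genes passed, with BAK1 and BIK added. BAK1 then had an adjusted p of 0.0397, and BIK a log2 fold change of 0.54 and an adjusted p of 0.0327. BAK1 also passed with plain library totals and some other alternatives given below, with every library kept. BCL2L11 was at 39.9, 39.6 and 40.6 CPM in SKBR3 MitoQ, against 41.4, 43.3 and 44.0 CPM in SKBR3 controls (log2 fold change -0.12 ± 0.0513, adjusted p = 0.0917).

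For BCL2L1, BAX and BID the SKBR3 libraries overlapped and the 95% intervals of the log2 fold change were narrow. They ran from -0.183 to 0.0305 for BCL2L1 (adjusted p = 0.29), from -0.108 to 0.228 for BAX (adjusted p = 0.629) and from -0.155 to 0.159 for BID (adjusted p = 0.987). BCL2, with 67 counts summed over the SKBR3 MitoQ libraries and 50 over the SKBR3 controls, had a far wider interval, from -0.4 to 0.919 (adjusted p = 0.589). At that depth a moderate rise of BCL2 was not detectable.

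**Figure D3:**
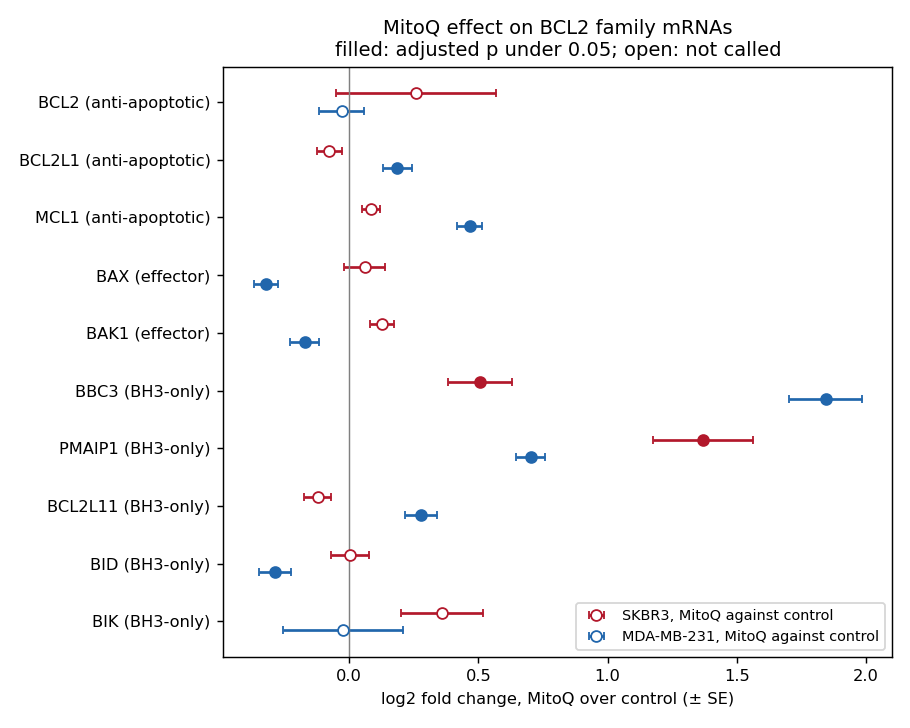
Log2 fold change of each of the 10 genes, MitoQ against control, with bars of ± SE, in SKBR3 (n = 3 per group) and MDA-MB-231 (n = 5 per group); filled points passed at an adjusted p of 0.05 and the vertical line marks no change. BBC3 and PMAIP1 lie to the right in both lines, PMAIP1 further in SKBR3 (1.37 in SKBR3, 0.70 in MDA-MB-231) and BBC3 less far (0.51 in SKBR3, 1.84 in MDA-MB-231).

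Whether the lines differed in their response was tested as the log2 fold change in SKBR3 minus that in MDA-MB-231, in a fit over all 16 libraries. For 7 of the 10 genes the difference passed, 4 with a positive and 3 with a negative value. It did so for 34.1% of 17094 genes, 19.1% positive and 14.9% negative. In log2 fold change, the response of PMAIP1 was larger in SKBR3, by 0.71 ± 0.175 (SE; adjusted p = 0.00268). In CPM its rise was smaller there, from a mean of 1.13 to 2.97 in SKBR3, against 34.7 to 55.6 in MDA-MB-231. The response of BBC3 was smaller in SKBR3, the difference being -1.30 ± 0.218 (adjusted p = 5.34e-05). So, in log2 fold change, the pair of BH3-only genes called in both lines differed in opposite directions between them.

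MCL1 and BCL2L11 also had lower responses in SKBR3, with differences of -0.34 ± 0.065 (adjusted p = 0.000244) and -0.36 ± 0.0873 (adjusted p = 0.00236). BAX (0.42 ± 0.0925, adjusted p = 0.00086) and BAK1 (0.34 ± 0.0827, adjusted p = 0.00217) had positive differences. So had BID (0.33 ± 0.0973, adjusted p = 0.0103). BAX, BAK1 and BID had fallen in MDA-MB-231. Each of those 5 genes was called in MDA-MB-231 and not in SKBR3, and the difference itself passed as well. BCL2L1 was also called in MDA-MB-231 only, but its difference did not pass. BCL2L1 (-0.22 ± 0.093, adjusted p = 0.0728), BCL2 (0.34 ± 0.294, adjusted p = 0.422) and BIK (0.43 ± 0.321, adjusted p = 0.336) gave no call. BCL2L1 sits close to the threshold, and without MDA-MB-231 MitoQ library 2 its difference was -0.26 with an adjusted p of 0.00806. With plain library totals, 2458 of 5904 genes that differed had a positive difference, against 3269 of 5823 with TMM scaling. Under plain totals the difference of BID gave no call (0.24, adjusted p = 0.0594).

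Sums of CPM per kb over the 10 genes show the balance of the roles among them, as a description without a test. Other BCL2 family genes, such as BCL2L2, BAD, BOK and BMF, were not part of the sums. In MDA-MB-231 the anti-apoptotic members made up 63.5 ± 0.71% of the sum with MitoQ and 57.5 ± 0.317% in controls (SD, n = 5 each). The effectors made up 21.7 ± 0.925% in MDA-MB-231 MitoQ and 30.1 ± 0.285% in MDA-MB-231 controls, and the BH3-only genes 14.8 ± 0.52% in MDA-MB-231 MitoQ and 12.3 ± 0.378% in MDA-MB-231 controls. The effector share was thus the one that was lower with MitoQ, without overlap. In SKBR3 the anti-apoptotic share was 53.2 ± 0.352% with MitoQ and 53.8 ± 0.684% in controls (SD, n = 3 each), and the BH3-only share 20.5 ± 0.446% with MitoQ and 20.8 ± 0.802% in controls. These SKBR3 shares overlapped between groups, but over the union of exons neither overlapped. There the anti-apoptotic share was 64.4 ± 0.352% in SKBR3 MitoQ and 66.0 ± 0.741% in SKBR3 controls, and the BH3-only share 12.1 ± 0.29% in SKBR3 MitoQ and 11.3 ± 0.454% in SKBR3 controls. In MDA-MB-231 the BH3-only share over the union of exons was 12.7 ± 0.411% with MitoQ and 10.6 ± 0.436% in controls. The higher BH3-only share of SKBR3 over principal transcripts thus depended on the length used. The effector share of MDA-MB-231 was 13.4 ± 0.687% with MitoQ and 19.2 ± 0.334% in controls on the union length.

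Ratios of partners whose proteins bind each other are likewise given without a test. MCL1 per kb was 50.3 ± 3.31 times PMAIP1 in SKBR3 MitoQ and 122 ± 1.09 times in SKBR3 controls, against 4.82 ± 0.237 times in MDA-MB-231 MitoQ and 5.69 ± 0.396 times in MDA-MB-231 controls. PMAIP1 had only 17 to 31 counts per SKBR3 control library. The small SD of that ratio therefore understates its counting error. BCL2L1 per kb was 9.45 ± 0.238 times BBC3 in SKBR3 MitoQ and 14.2 ± 0.371 times in SKBR3 controls. In MDA-MB-231 that ratio was 22.4 ± 2.53 with MitoQ and 71.8 ± 13.2 in controls. The 5 BH3-only members also differ in make-up. PMAIP1 gave 3.5 ± 0.223% of their sum in SKBR3 MitoQ and 1.38 ± 0.0612% in SKBR3 controls. In MDA-MB-231 it gave 46.1 ± 2.38% with MitoQ and 38.5 ± 2.0% in controls. BCL2L11 led these members in SKBR3, with 60.4 ± 0.519% of the sum in SKBR3 MitoQ and 67.0 ± 0.654% in SKBR3 controls. These shares also depend on length. Over the union of exons PMAIP1 gave 7.28 ± 0.394% in SKBR3 MitoQ and 3.17 ± 0.185% in SKBR3 controls, but 64.3 ± 3.05% in MDA-MB-231 MitoQ and 56.5 ± 2.16% in MDA-MB-231 controls. BCL2L11 gave 33 ± 0.677% in SKBR3 MitoQ and 40.4 ± 1.14% in SKBR3 controls on that length.

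BBC3 and PMAIP1, the genes called in both lines, lie on chromosomes 19 and 18 of GRCh38 (BBC3 at chr19:47220822-47232766 on the minus strand, with 4 exons in its principal transcript, and PMAIP1 at chr18:59899948-59904306 on the plus strand, with 2). The 250 bases before each RefSeq start (GRCh38.p14) are shown because these are the members that rose in both lines; capitals mark a match to the half-site of the cyclic AMP response element, the motif bound by ATF and CREB factors. The BBC3 stretch is chr19:47232668-47232917, minus strand, and the PMAIP1 stretch is chr18:59899746-59899995, plus strand.
BBC3: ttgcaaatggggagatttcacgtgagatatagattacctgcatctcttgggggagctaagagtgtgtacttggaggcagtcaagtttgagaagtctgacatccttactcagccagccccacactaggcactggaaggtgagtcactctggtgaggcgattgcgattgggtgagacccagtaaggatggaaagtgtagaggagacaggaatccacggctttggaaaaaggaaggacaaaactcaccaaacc
PMAIP1: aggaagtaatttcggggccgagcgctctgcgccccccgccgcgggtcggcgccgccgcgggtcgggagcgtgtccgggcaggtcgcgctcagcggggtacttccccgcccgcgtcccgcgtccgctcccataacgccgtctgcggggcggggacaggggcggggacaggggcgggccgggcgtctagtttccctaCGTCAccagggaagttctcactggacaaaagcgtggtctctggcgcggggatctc

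The stretches differ in composition, with a GC content of 49.2% for BBC3 and 72.8% for PMAIP1. Windows from 250 bases before to 50 after the start were searched on both strands for TGACGTCA, its half-site TGACG, TTGCATCA (a C/EBP-ATF composite site) and GTAAACA (a FOXO site). TGACG occurs within TGACGTCA, so a full site also counts as a half-site. The PMAIP1 window held 1 half-site, read as CGTCA on the plus strand and starting 55 bases before the start, and the BBC3 window held none of these motifs. Half-sites are common, being in 24.5% of 34943 windows, while TGACGTCA was in 1.84%, TTGCATCA in 0.87% and GTAAACA in 3.42%. Of the 10 genes, 8 had a window. BAX, BCL2 and 1 of the BCL2L1 windows also held a half-site, and BCL2L11 held GTAAACA at 223 bases before the start. A match describes letters only.

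Sequence shared with other genes limits some members. In the annotation, 39.6% of the 31-base words of BCL2L1 (chr20:31664452-31723989, minus strand) also occur in another transcript, chiefly the antisense gene ABALON. For BAK1 (chr6:33572547-33580293, minus strand) the figure was 18%, shared with the pseudogene BAK1P1 and with GGNBP1 on the opposite strand. For BCL2L11 (chr2:111119378-111168447, plus strand) it was 11.1%, chiefly with MIR4435-2HG on the opposite strand. These are shares of annotated words, not of reads, and give no size for an error in the levels. Whether the counting used strand is not stated, so how far the levels of these 3 genes are affected is not known. BAK1P1 had 0 to 5 counts and GGNBP1 11 to 34 per library, beside 761 to 1633 for BAK1. For BCL2, PMAIP1 and BIK no such word was shared, and for BBC3 1.56% were.

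Lists of neighbouring pathway genes place the 10 members in context. Over all genes, 29.9% rose and 27.6% fell with MitoQ in MDA-MB-231, and 13.8% rose and 14.1% fell in SKBR3. Of 9 other BCL2 family genes tested in MDA-MB-231, 4 rose and 4 fell with MitoQ, and of 10 tested in SKBR3, 3 rose and 1 fell. BMF, a further BH3-only gene, rose in both lines. It averaged 4.40 ± 0.539 CPM in MDA-MB-231 MitoQ against 2.05 ± 0.218 CPM in MDA-MB-231 controls (log2 fold change 1.12, adjusted p = 6.38e-07). In SKBR3 it averaged 17.3 ± 1.10 CPM with MitoQ against 10.2 ± 0.674 CPM in controls (0.74, adjusted p = 4.25e-05). BAD, also BH3-only, fell in MDA-MB-231 (-0.30, adjusted p = 0.00588). HRK, BH3-only as well, rose there (1.08, adjusted p = 0.000969), at a mean of 0.778 CPM. In SKBR3, BAD averaged 26.0 CPM with MitoQ and 23.7 CPM in controls. BOK, an effector-like member, rose in SKBR3 (0.67, adjusted p = 0.00115) and fell in MDA-MB-231 (-0.25, adjusted p = 0.00145), and the difference between lines was 0.96 ± 0.134 (adjusted p = 5.1e-06). BCL2L2, an anti-apoptotic gene, fell in SKBR3 (-0.14, adjusted p = 0.0406) and rose in MDA-MB-231 (0.61, adjusted p = 3.32e-07). BNIP3, a mitophagy receptor also placed in the family, fell in MDA-MB-231 (-1.04) and had a log2 fold change of 0.12 in SKBR3 (adjusted p = 0.215).

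Downstream of the outer membrane, 6 of 9 apoptosome and caspase genes fell and none rose in MDA-MB-231, and 2 of 9 fell and none rose in SKBR3, where 27.6% of all genes fell in MDA-MB-231 and 14.1% in SKBR3. APAF1, the apoptosome scaffold, averaged 35.9 ± 1.51 CPM in MDA-MB-231 MitoQ and 59.7 ± 2.54 CPM in MDA-MB-231 controls (log2 fold change -0.71, adjusted p = 6.64e-10). In SKBR3 its log2 fold change was 0.09 (adjusted p = 0.366), and the lines differed by 0.85 ± 0.083 (adjusted p = 2.52e-08). CYCS, the gene for cytochrome c, fell in both lines, with log2 fold changes of -0.39 in SKBR3 and -0.28 in MDA-MB-231. The median over this list was -0.28 in MDA-MB-231, beside 0.012 over all genes, and -0.13 in SKBR3, beside -0.00064 over all genes. Of 6 genes for outer membrane channels and BAX or BAK partners, 5 fell in each line, VDAC1 and MTCH2 among them, beside the same 27.6% and 14.1% of all genes, and 1 rose in MDA-MB-231, TMBIM6 (0.46). Of the 7 genes for inhibitors of apoptosis and their antagonists, 4 rose and 1 fell in MDA-MB-231, where 57.5% of all genes passed, and 1 rose and 2 fell in SKBR3, where 28% did. XIAP, a direct caspase inhibitor, fell in SKBR3 (-0.14, adjusted p = 0.027) and rose in MDA-MB-231 (0.44, adjusted p = 1.99e-06). BIRC5, the survivin gene and also a mitosis gene, fell in MDA-MB-231 (-1.07) and had a log2 fold change of -0.03 in SKBR3 (adjusted p = 0.592).

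Of 13 genes for transcription factors known to act on BCL2 family genes, 8 rose and 2 fell in MDA-MB-231, and of 12 tested in SKBR3, 7 rose and none fell. Over all genes, 29.9% rose in MDA-MB-231 and 13.8% in SKBR3, and 27.6% fell in MDA-MB-231 and 14.1% in SKBR3. DDIT3, the CHOP gene of the integrated stress response, averaged 28.8 ± 3.70 CPM in MDA-MB-231 MitoQ and 9.75 ± 0.939 CPM in MDA-MB-231 controls (log2 fold change 1.58, adjusted p = 2.14e-11). In SKBR3 it averaged 5.90 ± 1.01 CPM with MitoQ and 4.38 ± 0.354 CPM in controls (0.42, adjusted p = 0.0463), with overlapping libraries, and the difference between lines was -1.11 ± 0.183 (adjusted p = 4.09e-05). ATF4 also had the smaller response in SKBR3, with 0.12 in SKBR3 and 0.83 in MDA-MB-231 (difference -0.67 ± 0.0808, adjusted p = 6.04e-07). JUN had the larger response in SKBR3, at 0.75 in SKBR3 against 0.16 in MDA-MB-231 (difference 0.62 ± 0.128, adjusted p = 7e-04). FOXO3 rose in MDA-MB-231 (0.20, adjusted p = 0.000437) and gave no call in SKBR3 (adjusted p = 0.871).

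The last lists concern receptors and protein turnover. Of 11 death receptor pathway genes in MDA-MB-231, 5 rose and 1 fell, and of 9 tested in SKBR3, 4 rose and 1 fell, beside 57.5% of all genes passing in MDA-MB-231 and 28% in SKBR3. TNFRSF10B, a receptor for TRAIL, rose in both lines (0.34 in SKBR3, adjusted p = 0.00736, and 0.51 in MDA-MB-231, adjusted p = 6.54e-08). TNFSF10, the TRAIL gene itself, averaged 9.28 ± 2.76 CPM in MDA-MB-231 MitoQ and 4.10 ± 0.375 CPM in MDA-MB-231 controls (log2 fold change 1.20, adjusted p = 4.98e-05), and in SKBR3 it was too low to be tested. Of 7 genes for the turnover and binding of the MCL1, BIM and NOXA proteins, 4 rose and 2 fell in MDA-MB-231, and 1 rose and 1 fell in SKBR3, the SKBR3 count being near the 28% of all genes that passed there. HUWE1, a ubiquitin ligase for MCL1, rose in MDA-MB-231 (0.51) and had a log2 fold change of 0.04 in SKBR3 (adjusted p = 0.432).

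**Figure D4:**
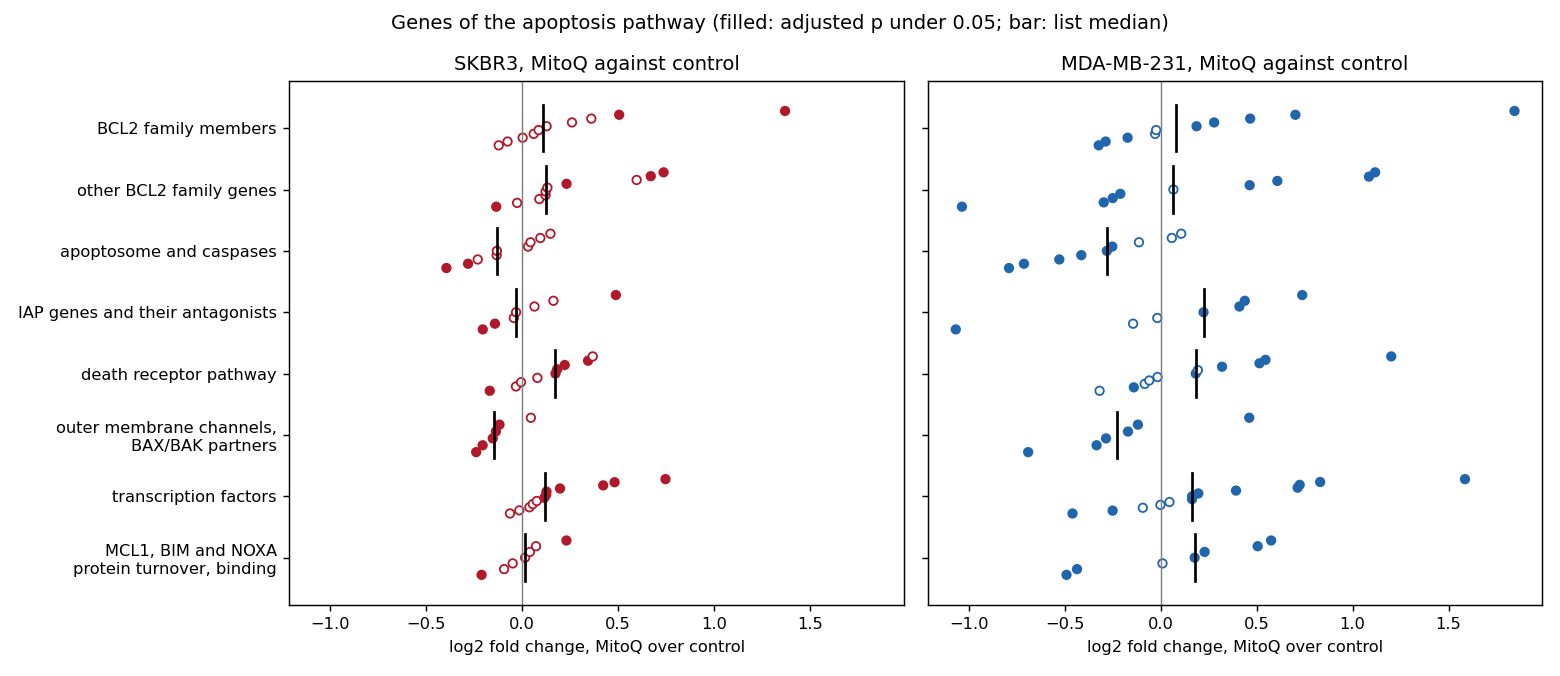
Log2 fold change, MitoQ against control, of each tested gene in the BCL2 family and the 7 neighbouring lists, with 1 panel per line on a shared axis; filled points passed at an adjusted p of 0.05 and bars mark list medians. The median of the apoptosome and caspase genes lies left of 0 in both lines, at -0.13 in SKBR3 and -0.28 in MDA-MB-231.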

How the data were processed

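RNA-sequencing reads were quantified with Salmon against GRCh38, and edgeR was used, per the submitters' processing notes; versions and any use of strand are not given in the sources used here. What the authors deposited are estimated counts for each gene, held as whole numbers. The 10 genes, the pathway lists and the tests were chosen with earlier results of these data known. Genes were filtered with filterByExpr, scaled by TMM and tested with the quasi-likelihood test of edgeR 4.0.16 (R 4.3.3) over the whole table, at a Benjamini-Hochberg adjusted p of 0.05. Each line's treatment effect was fitted on its own libraries, the difference of effects on all 16, and the line comparison on the 8 controls. A gene that passed is said to have risen or fallen. Levels are CPM with TMM factors over all 16 libraries, so ratios of levels differ slightly from fitted folds. Errors on levels are SD, those on log2 fold changes SE. Positions and transcripts are from GENCODE release 29, promoters from RefSeq. Every member was named. In each pathway list, genes were mostly taken from the largest changes among those that passed in a comparison. Not all of these were named: CASP6 (-0.79), VDAC3 (-0.69) and DYNLL2 (0.58) in MDA-MB-231 were left out above. Some genes were named for contrast between the lines or within a list after their values were seen. The fit was tested on simulated counts. Alternatives were DESeq2 1.42.0, limma 3.58.1 (voom), other scalings and filters, a replicate block and leaving out each library. Nothing says that replicates are separate cultures, so p-values measure only the spread between these libraries, which may be technical. No pair of the 26 within-group pairs agreed within sampling noise, with a chi-square per gene from 2.56 to 19.8. Intervals and floors cover counting error, or the fit, only. Some results of the marker, motif and transcription factor lists are not reported here.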

Additional observations from a re-analysis of the deposited data

Results flagged for a closer look

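The response to MitoQ differed between the lines, by the test of the difference itself, for 7 of the 10 genes, as it did for 34.1% of 17094 genes tested. As log2 fold change in SKBR3 minus that in MDA-MB-231, the difference was 0.71 for PMAIP1, 0.42 for BAX, 0.34 for BAK1 and 0.33 for BID, and it was -1.30 for BBC3, -0.36 for BCL2L11 and -0.34 for MCL1. The share of mitochondrially encoded counts was 5.15 to 5.26% in SKBR3 MitoQ, against 5.67 to 7.08% in SKBR3 controls, and 0.891 to 1.24% in MDA-MB-231 MitoQ, against 3.1 to 3.68% in MDA-MB-231 controls. With those genes left out, 8 of the 10 differences passed. In the 20 combinations of gene and MDA-MB-231 group, no library lay far from the rest by Dixon's criterion, although MDA-MB-231 MitoQ library 2 stood apart over all genes, its chi-square per gene against the other MitoQ libraries being 15.03 to 19.8, beside 3.12 to 10.93 among those. Without it, 8 of the 10 differences passed.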

How the results depend on the processing

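The 10 members called between the line controls stayed 10 under every alternative run. In MDA-MB-231 8 were called under every alternative except plain library totals (7). In SKBR3, 4 were called with plain library totals, where MCL1 (adjusted p = 0.0463) and BAK1 (0.0432) were added, 3 with voom (BAK1, 0.0487), and 2 to 4 with 1 library left out. Over all genes, a single fit of all 16 libraries called 2788 in SKBR3, against 4202 when the line was fitted alone, and leaving out 1 SKBR3 library called 2565 to 4547. For the difference between the lines, 8 were called with RLE size factors, DESeq2, voom, a filter at 1 CPM or mitochondrial genes left out, BCL2L1 being added with an adjusted p of 0.0478, 0.046, 0.0163, 0.0377 and 0.048. With plain totals BCL2L1 was added (0.00405) and BID lost. The cause was not tested. BBC3 and PMAIP1 in SKBR3 passed under every alternative, with an adjusted p from 0.00231 to 0.0422 for BBC3 and from 1.48e-07 to 0.00192 for PMAIP1.

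Signs turned only for uncalled log2 fold changes near 0. In MDA-MB-231, BCL2 was at 0.0317 and BIK at 0.0357 with plain totals, and BIK at 0.00817 with voom. With 1 library left out, BCL2 ran from -0.1 to 0.01 and BIK from -0.19 to 0.123. In SKBR3, BID was at -0.0028 with voom, -0.00298 with mitochondrial genes left out, -0.00239 with the replicate block and from -0.0281 to 0.0621 with 1 library left out.

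Replicate numbers did not pair the libraries: deviations of same-numbered libraries correlated from -0.129 to 0.034 in MDA-MB-231 and from 0.0 to 0.097 in SKBR3, and 1 of 5 and 1 of 3 MitoQ libraries correlated best with their own number. With the replicate block, 8 members passed in MDA-MB-231, 3 in SKBR3 (BAK1 added, adjusted p = 0.0469) and 7 for the difference, and 8363, 4758 and 5416 genes in all. No paired analysis was possible for the line controls, which are different cells. Counts were low for BIK and BBC3 in both lines and for BCL2 and PMAIP1 in SKBR3.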
